A study of Homo sapiens with 6 samples.

Results

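The drug efflux and platinum transporters examined here are 10 genes, named by symbol, with no measured value in the rule but with earlier results of these data known, out of 58825 gene identifiers in the table of counts. They comprise 7 efflux pumps of the ATP-binding cassette (ABC) family (ABCB1, ABCC1, ABCC2, ABCC3, ABCC4, ABCC5 and ABCG2), 2 copper-exporting ATPases (ATP7A and ATP7B) and the copper uptake protein SLC31A1. All 10 were measured in SKOV3, an established human ovarian cancer cell line, 48 h after transfection of either a negative control siRNA (NC, 3 libraries) or an siRNA against EIF5A2 (si-EIF5A2, 3 libraries). EIF5A2 encodes a translation factor. Cells of both groups were transfected, and neither group is described as having received a drug. The values are therefore read as levels in transfected cells and not as a response to cisplatin. Without an untransfected group, any effect of the transfection itself was not measured.

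ABC transporters use the energy of ATP to move substrates across membranes, and the pumps listed here can carry anticancer drugs, drug conjugates, bile salts or nucleotide analogues out of the cell. Their levels are known to differ widely between tissues, and several are abundant in liver, gut or barrier endothelium. Copper enters cells mainly through SLC31A1, also called CTR1, is handed to ATP7A and ATP7B by the chaperone ATOX1, and is loaded onto enzymes or exported by these ATPases. Platinum drugs such as cisplatin, the mainstay of ovarian cancer treatment, can bind to proteins of this copper route, which is why the route is studied in platinum resistance. The study asked how EIF5A2 affects stemness and cisplatin sensitivity of ovarian cancer cells, and the comparison of NC with si-EIF5A2 libraries shows which transporter transcripts differed after EIF5A2 knockdown.

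The libraries held 46900204 to 74142267 estimated counts, with low values piled up at multiples of about 3.72 counts, which was taken as what 1 sequenced fragment was worth. A gene at 0 counts could still be present at up to 3 fragments, or 0.153 to 0.237 CPM (counts relative to the library total after edgeR's TMM scaling, in the usual unit) depending on the library; this limit covers counting error only. EIF5A2 itself had 27.8, 29.8 and 29.9 CPM in the NC libraries and 2.76, 4.04 and 4.27 CPM in the si-EIF5A2 libraries, which is a log2 fold change of -2.98 (standard error, SE, 0.18), so that the labels and the targeted gene matched. The 8 epithelial and ovarian markers checked (ERBB2, KRT7, KRT8, KRT18, KRT19, EPCAM, MUC16 and PAX8) summed to 1506 to 1673 CPM in NC and 956 to 1168 CPM after knockdown; KRT7, KRT8 and PAX8 fell, and MUC16 was listed at 0 in every library. The 7 markers of blood, endothelial, fibroblast and liver cells summed to 1.62 to 2.10 CPM in NC and 0 to 1.36 CPM after knockdown, with PTPRC and CD3E at 0 throughout. Nearly all of the NC sum was the endothelial gene PECAM1, with 2.04, 1.96 and 1.62 CPM in NC and 0, 0.287 and 0.667 CPM after knockdown (log2 fold change -2.56, adjusted p = 0.0941, not called). The part of these marker differences in the transporter results was not tested. In such bulk samples, fewer cells carrying a transcript and less transcript per cell cannot be told apart. Nothing in the labels says that the libraries came from separate cultures, so p-values measure the spread between these libraries, which may be technical.

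After EIF5A2 knockdown, the breast cancer resistance protein gene ABCG2 was 3.37-fold, the multidrug resistance protein gene ABCC5 2.02-fold and the copper ATPase gene ATP7B 1.82-fold its NC level. These 3 of the 10 transporters were called, that is, they passed an adjusted p of 0.05 in the quasi-likelihood test of edgeR (Benjamini-Hochberg over 16208 genes) and differed by more than 1.5-fold. All 3 were higher after knockdown. By the same rule 24.6% of all genes tested were called, 11.1% higher and 13.6% lower after knockdown, so the 3 of 10 transporters called (30%) lay near the share found among all genes. All 10 passed the filter on low counts, ABCB1 by reaching its limit in 4 of the 6 libraries, NC replicate 3 and the 3 si-EIF5A2 libraries. The median log2 fold change of the 10 was 0.66, against -0.01 for all genes tested. This median lies between ABCC4 (0.50) and ABCB1 (0.82, standard error 1.19). It therefore depends on ABCB1, which passed the filter through the si-EIF5A2 libraries. In 9 of the 10 there was no overlap between NC and si-EIF5A2 libraries, 8 with si-EIF5A2 higher and ABCC3 with si-EIF5A2 lower; among all genes 51.2% did not overlap. Without a limit on the fold change, 6 of the 10 passed the adjusted p, 5 higher and ABCC3 lower, where 36.9% of all genes passed, 18.0% higher and 18.9% lower. For 3 against 3 libraries an exact 2-sided permutation test cannot give a p below 0.10, and it gave this smallest value for each of the 9 separated genes.

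**Figure D1:**
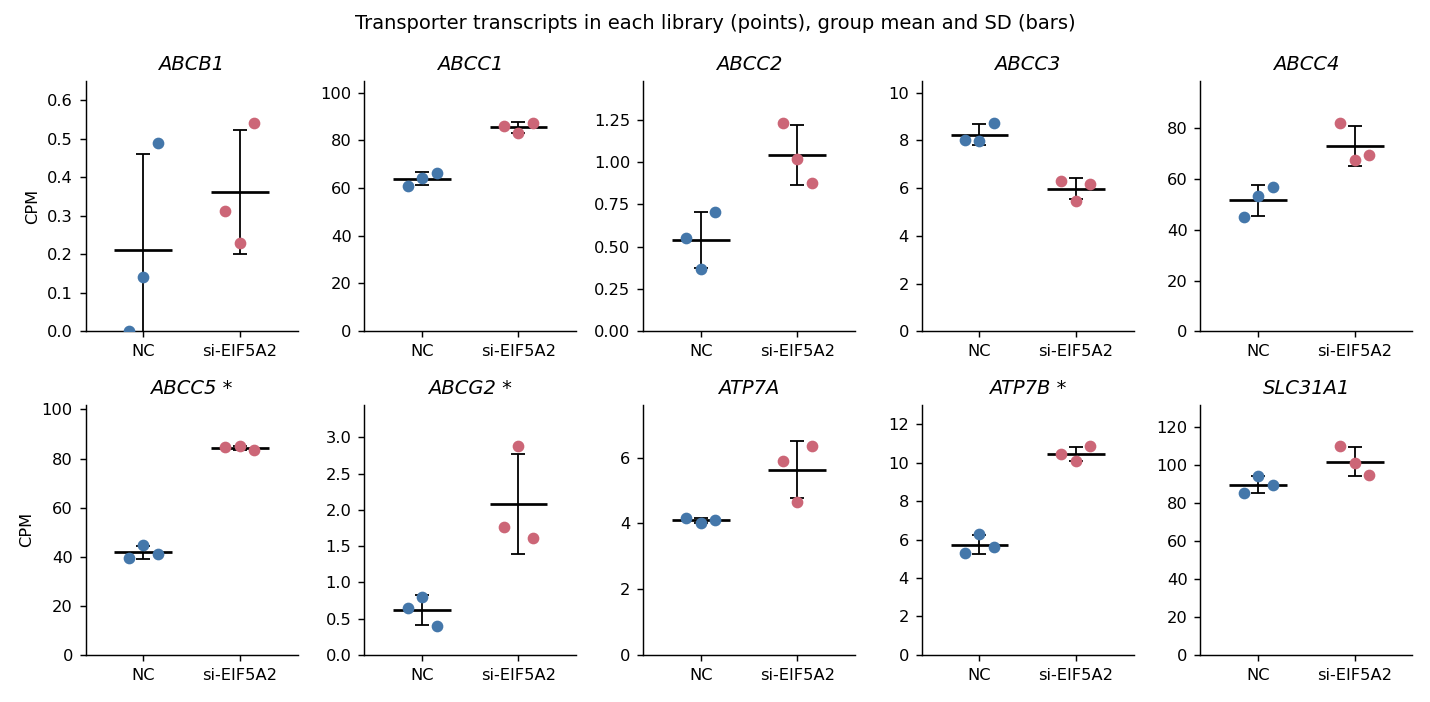
CPM of each transporter (vertical axes, each starting at 0) in the 3 NC and 3 si-EIF5A2 libraries; points are libraries, horizontal bars are group means, error bars are SD (n = 3), and an asterisk marks a called gene. In ABCC5 the si-EIF5A2 libraries sit between 83.4 and 84.9 CPM, well above the NC libraries at 39.4 to 44.6 CPM, whereas in ABCB1 the groups overlap.

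The transporters differed in level by orders of magnitude. Per kilobase of annotated exon, SLC31A1 was the most abundant of the 10 in NC cells with 17.5 ± 0.881 CPM per kb (SD, n = 3), a level above that of 84.9% of all genes tested. The values depend on the length used: by coding length SLC31A1, whose coding part is short, had 157 CPM per kb and ABCC1 13.7 CPM per kb, with the order of the 10 as given here. It was followed by ABCC1 (8.43 ± 0.365 CPM per kb), ABCC4 (5.99 ± 0.711 CPM per kb) and ABCC5 (3.65 ± 0.230 CPM per kb). ABCC3 (0.857 CPM per kb), ATP7B (0.593 CPM per kb) and ATP7A (0.374 CPM per kb) formed a middle group. ABCG2 (0.122 CPM per kb), ABCC2 (0.0688 CPM per kb) and ABCB1 (0.0362 CPM per kb) came last, and ABCB1 exceeded only 1.35% of the genes tested. The NC libraries of neighbours in this order did not overlap, except between ABCG2 and ABCC2 and between ABCC2 and ABCB1, so the order of the 3 lowest genes in NC is not set by these data. In si-EIF5A2 libraries the order was the same except that ATP7B, at 1.08 ± 0.0385 CPM per kb, stood above ABCC3, at 0.622 ± 0.0470 CPM per kb. This order of means is less firm in the middle, since the si-EIF5A2 libraries of ATP7A (0.426 to 0.580 CPM per kb) overlapped those of both ABCC3 (0.568 to 0.655 CPM per kb) and ABCG2 (0.318 to 0.570 CPM per kb). The best known drug pump, ABCB1, was thus barely detected, and ABCC1, ABCC4 and ABCC5 were the most abundant of the 7 efflux pumps.

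**Figure D2:**
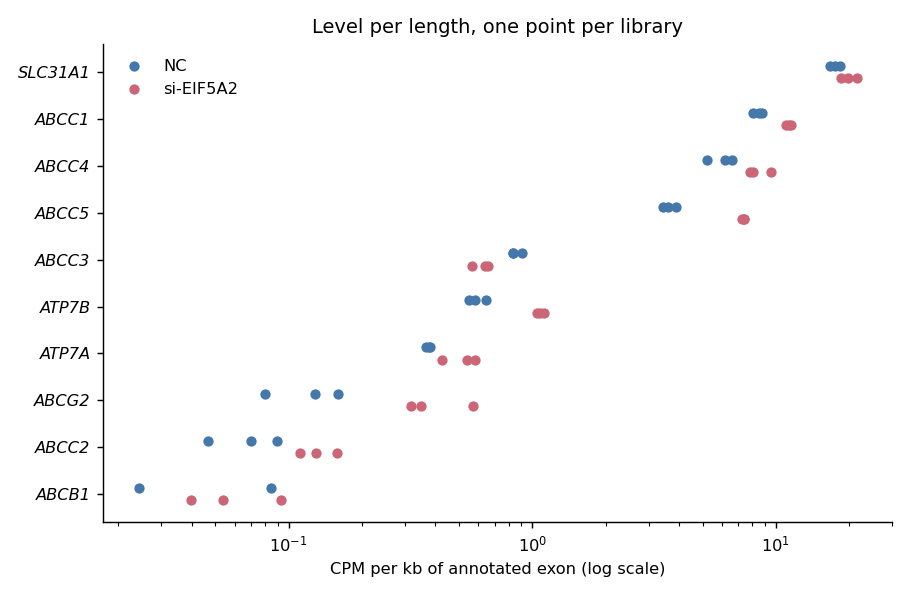
CPM per kilobase of annotated exon (horizontal axis, log scale) for each transporter, with a point for each NC and si-EIF5A2 library; the NC library in which ABCB1 had 0 counts cannot be drawn. The genes run from ABCB1 near the detection limit to SLC31A1 at 17.5 CPM per kb in NC.

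ABCC5 encodes the multidrug resistance protein MRP5, an exporter of cyclic nucleotides and nucleotide analogues. Its position is chromosome 3, 183919934 to 184018015, minus strand (GRCh38, as for all positions given here). It had 39.4, 44.6 and 41.3 CPM in the NC libraries and 84.7, 84.9 and 83.4 CPM in the si-EIF5A2 libraries. The 3 knockdown libraries were nearly equal and each was well above every control. The means were 41.7 ± 2.64 and 84.3 ± 0.810 CPM (SD, n = 3 each), and the log2 fold change was 1.01 (standard error 0.08, 95% interval 0.83 to 1.20, adjusted p = 5.63e-05), the smallest adjusted p of the 10 transporters. Of all genes tested, 80.9% had a smaller absolute log2 fold change. Among the genes outside the list, LYSMD3 (r = 0.9996), GALNT2 (r = 0.9995) and the pseudogene RPL23AP82 (r = 0.9995) had the log2 CPM profiles most like that of ABCC5 (Pearson's r over the 6 libraries). In all, 224 genes had an r over 0.99, and all these values share the same 2 groups of 3 libraries. The log2 fold changes of the 3 genes were 1.003, 0.38 and 1.41.

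ABCG2, the breast cancer resistance protein, exports topoisomerase inhibitors and other drugs and is the pump behind the dye-excluding side population used to enrich stem-like cells. Its position is chromosome 4, 88090264 to 88231322, minus strand. The NC libraries had 0.644, 0.805 and 0.404 CPM and the si-EIF5A2 libraries 1.76, 2.87 and 1.61 CPM. All knockdown libraries were above all controls, and si-EIF5A2 replicate 2 was the highest. The log2 fold change of 1.74 (standard error 0.39, 95% interval 0.85 to 2.63, adjusted p = 0.00901) was the largest of the 10 transporters, and 93.4% of all genes tested had a smaller one in absolute size. These values rest on few fragments, about 5.1 to 15.3 per NC library and 20.7 to 40.3 per si-EIF5A2 library. After the rise ABCG2 had a mean of 0.412 ± 0.137 CPM per kb (SD, n = 3), and its libraries overlapped those of ATP7A.

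ATP7B, the copper ATPase mutated in Wilson disease, exports copper through the secretory route and has been linked to cisplatin resistance. Its position is chromosome 13, 51930436 to 52012125, minus strand. The NC libraries had 5.30, 6.27 and 5.64 CPM, and the si-EIF5A2 libraries had 10.4, 10.1 and 10.8 CPM. The groups were clearly apart, with little spread inside either. The log2 fold change was 0.87 (standard error 0.13, 95% interval 0.56 to 1.17, adjusted p = 0.00152).

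**Figure D3:**
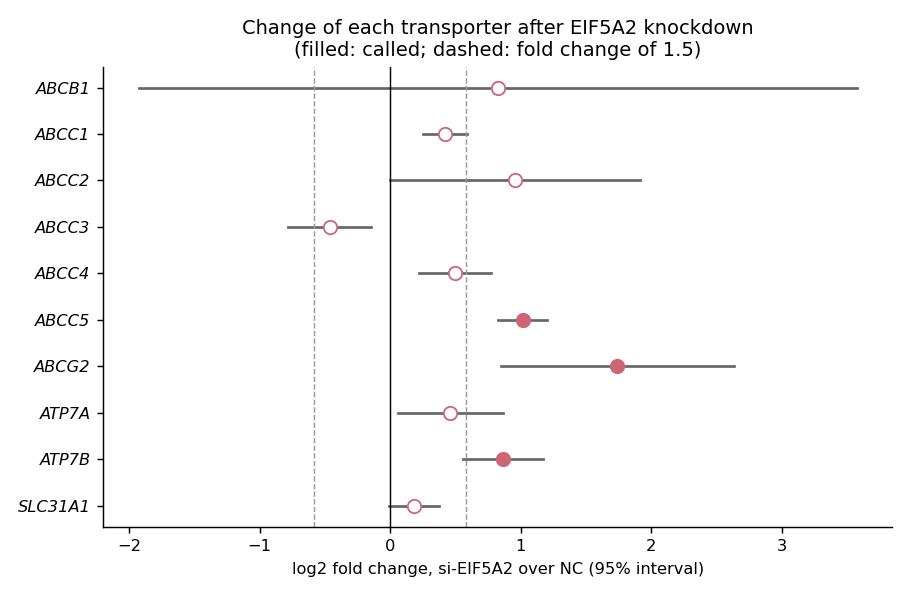
Log2 fold change of each transporter, si-EIF5A2 over NC (horizontal axis), with its 95% interval as a line; filled points are called genes and dashed lines mark a fold change of 1.5 in either direction. ABCC5, ABCG2 and ATP7B are filled, and the interval of ABCB1 runs from -1.92 to 3.57.

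Since ABCC5, ABCG2 and ATP7B were the transporters called, and all in the same direction, the 250 bases before their RefSeq start sites are given (GRCh38.p14, 5′ to 3′ on the strand of the gene). The RefSeq table used held such a sequence for 8 of the 10 transporters, the others being ABCC1 and ABCC3. Where RefSeq has several starts, the start nearest to that of a coding transcript in GENCODE release 29 was taken. It lay 5 bases from such a transcript start in ABCC5 and 3 in ABCG2, but 514 in ATP7B. All 3 windows lie partly or wholly inside the annotated span of the gene. Capitals mark matches, on either strand, to any of 7 motifs: the GC box (GGGCGG), the KLF box (CACCC), the E2F site (TTTGGCG, with TTTCGCG and with TTTCCCG as its other forms), the AP-1 site (TGACTCA), the CCAAT box (CCAAT), the metal response core (TGCNCNC) and the antioxidant response core (TGACNNNGC). ABCC5 covers chr3:184017885-184018134, ABCG2 covers chr4:88158910-88159159 and ATP7B covers chr13:52012009-52012258, all on the minus strand.
ABCC5: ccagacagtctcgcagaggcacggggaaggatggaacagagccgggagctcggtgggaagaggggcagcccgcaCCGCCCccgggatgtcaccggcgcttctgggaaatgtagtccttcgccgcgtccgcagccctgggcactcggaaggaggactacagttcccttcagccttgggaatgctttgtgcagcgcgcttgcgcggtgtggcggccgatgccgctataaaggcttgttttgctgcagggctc
ABCG2: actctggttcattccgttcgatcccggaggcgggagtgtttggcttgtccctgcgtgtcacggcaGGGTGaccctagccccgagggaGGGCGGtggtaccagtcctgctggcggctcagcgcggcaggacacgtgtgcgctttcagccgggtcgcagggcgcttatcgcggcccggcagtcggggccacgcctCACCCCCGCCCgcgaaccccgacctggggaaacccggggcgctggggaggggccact
ATP7B: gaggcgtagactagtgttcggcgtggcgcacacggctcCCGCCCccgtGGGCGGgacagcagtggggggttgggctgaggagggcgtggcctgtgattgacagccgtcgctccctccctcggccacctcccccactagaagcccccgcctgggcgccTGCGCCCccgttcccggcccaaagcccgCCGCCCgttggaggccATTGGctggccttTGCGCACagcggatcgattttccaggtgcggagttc

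The GC content of these windows was 64.8% in ABCC5, 71.2% in ABCG2 and 70.8% in ATP7B, against a median of 58.0% over 35116 RefSeq promoters. Windows taken in the same way for uncalled transporters had 80.4% in ABCC4, 68.0% in SLC31A1, 67.2% in ATP7A, 45.6% in ABCC2 and 39.2% in ABCB1. A GC box was found 1 time in ABCC5, 2 times in ABCG2 and 3 times in ATP7B, and 42.6% of all promoters held such a match. ABCG2 held 2 KLF boxes, of which the second is directly followed by a GC box, and 54.7% of all promoters held a KLF box. ABCC5 and ATP7B held 0, while among the uncalled windows ATP7A held 3, ABCC4 and ABCB1 2 each, ABCC2 1 and SLC31A1 0. ATP7B held 1 CCAAT box (32.0% of all promoters) and 2 metal response cores (49.1% of all promoters). Among the uncalled windows ATP7A also held 2 metal response cores, ABCC2, ABCC4 and SLC31A1 held 1 each, and ABCB1 held 0. SLC31A1 also held 1 CCAAT box. E2F sites (6.12% of all promoters), AP-1 sites (4.20%) and antioxidant response cores (10.9%) were not matched in the 3 windows. Of the uncalled windows, ABCC4 held 1 E2F site and 1 antioxidant response core, and ATP7A held 1 E2F site. The uncalled SLC31A1, in a window of the same length, also held 3 GC boxes. A match to these letters is a description and not evidence of binding.

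The other ABCC pumps were not called. ABCC1, or MRP1, exports glutathione conjugates and several chemotherapy drugs (chromosome 16, 15949577 to 16143074, plus strand). It had 60.9, 64.3 and 66.4 CPM in NC and 85.9, 83.0 and 87.4 CPM after knockdown, without overlap. Its log2 fold change of 0.42 (SE 0.07, adjusted p = 0.00305) passed the adjusted p but was under the fold change limit. ABCC4, or MRP4, a pump for cyclic nucleotides and prostaglandins (chromosome 13, 95019829 to 95301475, minus strand), had 44.9, 53.3 and 56.9 CPM in NC and 82.2, 67.5 and 69.6 CPM after knockdown. The groups were apart, and si-EIF5A2 replicate 1 was the highest. The log2 fold change of ABCC4 was 0.50 (SE 0.12, adjusted p = 0.0123), again under the fold change limit.

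ABCC3, or MRP3, an exporter of bile salts and glucuronides, was the only transporter of the list with a lower mean after knockdown (chromosome 17, 50634777 to 50692252, plus strand). It had 8.002, 7.98 and 8.74 CPM in NC and 6.30, 5.46 and 6.17 CPM after knockdown. The groups did not overlap, and the knockdown mean was 72.5% of the NC mean. The log2 fold change was -0.46 (SE 0.14, adjusted p = 0.0303), short of the fold change limit, and the adjusted p was between 0.0503 and 0.0844 when any single library was left out.

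ABCC2, or MRP2, the pump that moves conjugates and cisplatin adducts into bile, was close to the detection limit (chromosome 10, 99782640 to 99852594, plus strand). It had 0.548, 0.367 and 0.702 CPM in NC and 1.23, 1.02 and 0.876 CPM after knockdown. All knockdown libraries were higher, but the log2 fold change of 0.95 (standard error 0.41, 95% interval -0.0045 to 1.91, adjusted p = 0.112) did not pass the threshold. ABCB1, which encodes P-glycoprotein, the classical pump for taxanes and anthracyclines (chromosome 7, 87503633 to 87713323, minus strand), had 0, 0.141 and 0.489 CPM in NC and 0.313, 0.230 and 0.542 CPM after knockdown. The groups overlapped, and the highest library held about 7.0 fragments. Its log2 fold change was 0.82 with a standard error of 1.19 (adjusted p = 0.639), and it was 0.21 when NC replicate 1 was left out and 2.32 when NC replicate 3 was. At this depth neither a several-fold rise nor a fall of ABCB1 can be told from no change.

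Of the copper transporters other than ATP7B, neither was called. ATP7A, the copper ATPase mutated in Menkes disease (X chromosome, 77910656 to 78050395, plus strand), had 4.15, 4.01 and 4.105 CPM in NC and 5.91, 4.66 and 6.34 CPM after knockdown. The knockdown libraries were all higher but spread more widely than the controls. The log2 fold change of ATP7A was 0.46 (SE 0.17, adjusted p = 0.0715) and was not called. Without si-EIF5A2 replicate 2 it was 0.58 (adjusted p = 0.0353), just under the fold change limit. Without si-EIF5A2 replicate 3 it was 0.36 (adjusted p = 0.211). Its exons share 289 bases with PGK1, a glycolytic gene, and a pseudogene on the same strand, which makes its count less certain; PGK1 had 670 CPM in NC and 834 CPM after knockdown (log2 fold change 0.32, adjusted p = 0.0153). No other transporter of the list shares exon sequence with another annotated gene on either strand. The difference between the ATP7A and ATP7B fold changes was not tested.

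SLC31A1, the high-affinity copper importer (chromosome 9, 113221562 to 113264492, plus strand), had 85.3, 94.3 and 89.5 CPM in NC and 110, 101 and 95.01 CPM after knockdown. The lowest knockdown library was only just above the highest control. Its log2 fold change was 0.18 (standard error 0.08, 95% interval -0.0092 to 0.38, adjusted p = 0.127). The interval leaves room for a rise of up to 0.38 on the log2 scale and ends below the fold change limit. The low-affinity relative SLC31A2, or CTR2, was less abundant per length (1.66 ± 0.268 CPM per kb in NC; SD, n = 3) and had 3.38, 4.43 and 4.64 CPM in NC and 9.02, 11.7 and 10.3 CPM after knockdown. SLC31A2 rose by a log2 fold change of 1.32 (SE 0.18, adjusted p = 8.40e-04).

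Of 29 further genes that handle copper or platinum, 25 were tested, and 8 were called (32.0%, against 24.6% of all genes tested). Of the 8, 4 were higher and 4 lower, and the median log2 fold change of the tested genes was 0.13. Besides SLC31A2, the called rises were the organic cation transporter SLC22A3 (log2 fold change 1.04, adjusted p = 0.00155), the mitochondrial copper chaperone COX17 (0.67) and the divalent metal transporter SLC11A2 (0.61). The called falls were the drug extruder SLC47A1, or MATE1 (log2 fold change -1.02, adjusted p = 0.00637), LRRC8B of the volume-regulated anion channel (-0.81), the cytochrome oxidase copper factor COX11 (-0.77) and the metalloreductase STEAP3 (-0.76). LRRC8A and LRRC8D, the channel subunits linked to platinum uptake, were not called (log2 fold changes -0.21 and -0.48), and the LRRC8D libraries varied from 4.73 to 14.9 CPM. ATOX1, the chaperone that delivers copper to ATP7A and ATP7B, had 119 ± 9.92 CPM in NC and 155 ± 19.5 CPM after knockdown (SD over 3 libraries in each group); the log2 fold change was 0.37 (adjusted p = 0.0300) under the fold change limit. The superoxide dismutase chaperone CCS (log2 fold change -0.0099) and COMMD1, a partner of ATP7B (-0.33), were not called, nor was the major vault protein MVP (0.45). SLC11A2 lost the call, with a fold change just under the limit, without NC replicate 2 (log2 fold change 0.58), without si-EIF5A2 replicate 1 (0.53) and without the filter on low counts (0.58). LRRC8B lost it without NC replicate 3 (-0.68), si-EIF5A2 replicate 1 (-0.68) or si-EIF5A2 replicate 3 (-0.77). LRRC8D was called in a single alternative, without si-EIF5A2 replicate 1 (log2 fold change -1.20, adjusted p = 0.0482).

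The rest of the ABC family comprised 41 genes, of which 24 were tested and 9 had 0 counts in every library. Of the 24, 5 were called (20.8%), 2 higher and 3 lower, with a median log2 fold change of 0.11. The largest rise was that of ABCC9, which encodes the sulfonylurea receptor subunit of potassium channels and not a drug pump: it had 2.33, 2.15 and 0.978 CPM in NC and 18.7, 15.9 and 14.2 CPM after knockdown. The fitted log2 fold change was 3.15 (SE 0.32, adjusted p = 2.78e-04). TAP1, a peptide transporter of antigen loading, rose from 41.8 ± 0.682 to 95.01 ± 12.6 CPM (SD, n = 3 each; log2 fold change 1.18). The mitochondrial transporter ABCB8 (log2 fold change -1.36), the sterol exporter ABCG1 (-1.07) and the lysosomal peptide transporter ABCB9 (-0.96) fell. Among the closest relatives and neighbours of the drug pumps, ABCB4 had 4 counts in a single library, ABCC11 had 10 counts in a single library and ABCC12 had 0 counts in all, all under the limit set by 3 fragments. ABCC10 (log2 fold change 0.31) and ABCC6 (-0.62, SE 0.65) were not called. ABCC6 had only 8 to 26 counts per library, and every si-EIF5A2 library was under the limit set by 3 fragments. It also has near-identical pseudogene copies that could share its reads.

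Among 23 solute carriers that take up drugs, 10 were tested. SLCO1B3, an organic anion uptake carrier, rose (log2 fold change 0.80), and SLCO3A1 (-1.51) and the equilibrative nucleoside transporter SLC29A2 (-0.69) fell; the median was -0.41. SLC29A2 lost the call without NC replicate 1 (log2 fold change -0.58), si-EIF5A2 replicate 1 (-0.65) or si-EIF5A2 replicate 2 (-0.63). The main gemcitabine and folate uptake carriers SLC29A1 (log2 fold change -0.15) and SLC19A1 (0.28) were not called. Of 18 transcription factors and membrane anchors known to act on these transporters, 13 were tested and 2 were called (15.4%), both higher. These were ARNT, the partner of the aryl hydrocarbon receptor (log2 fold change 0.64), and MTF1, the metal-responsive transcription factor (0.65). Without si-EIF5A2 replicate 1 MTF1 was not called (log2 fold change 0.55, adjusted p = 0.0108). AHR (log2 fold change 0.13), NFE2L2 (-0.16) and YBX1 (-0.073) were not called, and the drug-sensing receptor gene NR1I2 had 0 counts in every library.

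**Figure D4:**
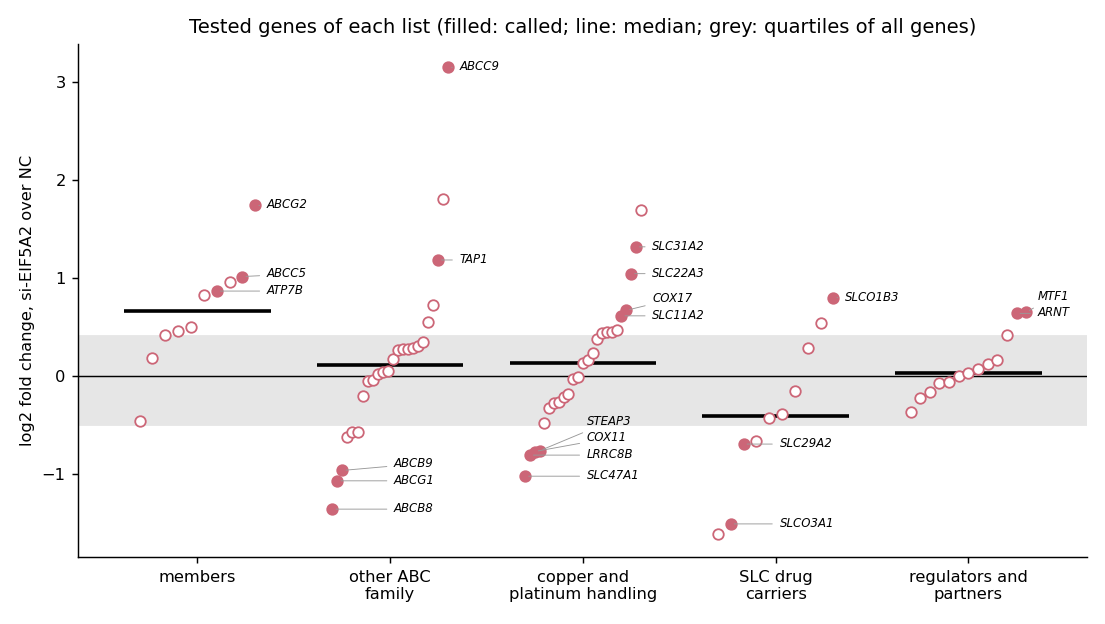
Log2 fold changes, si-EIF5A2 over NC (vertical axis), of the tested genes in the 10 transporters and 4 related lists; filled points are called genes, black lines are medians and the grey band spans the quartiles of all genes tested (-0.50 to 0.41). The medians are 0.66 for the 10 transporters, 0.11 for the other ABC genes, 0.13 for copper and platinum handling, -0.41 for the solute carriers and 0.03 for the regulators and partners. The median of the 10 transporters lies between ABCC4 and the barely detected ABCB1. The band describes single genes and is no yardstick for a median.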

How the data were processed

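Estimated counts per gene were used as the authors deposited them: whole numbers, neither scaled by library size nor by gene length. The authors sequenced paired-end mRNA libraries and estimated levels with StringTie and ballgown. The submitters' processing notes name Bowtie 0.12.2 and mouse builds, although the identifiers are those of human Ensembl genes; the aligner, human build and annotation release are not given in the sources used here. The 6 columns were matched to libraries by name, with 0 left over. Of 58825 identifiers, 58472 had a symbol and 58552 were in GENCODE release 29 (GRCh38), which gave positions and lengths.

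Differential expression used edgeR 4.0.16 (R 4.3.3) over the 6 libraries, modelling condition alone: filterByExpr, TMM, robust dispersions and quasi-likelihood tests, adjusted by Benjamini-Hochberg over 16208 genes. Being whole, the counts needed no rounding. Genes were called at an adjusted p below 0.05 with more than a 1.5-fold difference. Standard errors are the log2 fold change over the square root of F. The steps were tested on simulated counts.

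Alternatives were DESeq2 1.42.0, RLE, upper-quartile or no normalization factors, no filter, at least 10 counts in every library, a replicate block, counts divided by their step, other thresholds, leaving out each library, and coding length. Members and lists were chosen with earlier results of these data known. Named are all 10 transporters, relatives and partners fixed by name, the 3 largest called rises and falls per list, and the genes most like ABCC5. COX17, SLC11A2, COX11, STEAP3 and LRRC8B complete the calls of their list; NR1I2 and PGK1 were named after their values were seen. No protein sequences were used here.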

Additional observations from a re-analysis of the deposited data

How the results depend on the processing

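ABCC5, ABCG2 and ATP7B, and no other of the 10 transporters, were called under every alternative that kept the threshold, and the sign of all 10 log2 fold changes was kept. Without a limit on the fold change, 36.9% of all genes tested passed. Among them were 6 of the 10 transporters, 10 of the 24 further ABC genes tested and 13 of the 25 copper and platinum genes tested. When a difference of more than 2-fold and an unadjusted p below 0.05 were required instead, 2370 of 16208 tested genes passed. Among tested genes these were 2 of 10 transporters, 5 of 24 further ABC genes and 3 of 25 copper and platinum genes. Of the tested solute carriers 1 of 10 passed. Of the tested regulators 0 of 13 passed, although both called regulators had an adjusted p under 0.05. Leaving out each library in turn gave 1 to 2 regulators called. Divided by coding length, NC levels in CPM per kb were 157 for SLC31A1, 13.7 for ABCC1, 12.3 for ABCC4, 8.82 for ABCC5, 1.61 for ABCC3, 1.30 for ATP7B, 0.903 for ATP7A, 0.314 for ABCG2 and 0.115 for ABCC2, in the same order. Across the alternatives the adjusted p ran from 3.02e-18 to 9.47e-04 for ABCC5, from 0.00110 to 0.0364 for ABCG2 and from 1.78e-05 to 0.00938 for ATP7B.

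Libraries with the same replicate number did not deviate together (correlations from -0.058 to 0.012), so the numbers were not taken as pairs. With the replicate number as a block, the same 3 transporters were called and 3731 genes in all, and ABCC5, ABCG2 and ATP7B had log2 fold changes of 1.02, 1.75 and 0.87. ABCB1 gave no value with at least 10 counts in every library or with counts divided by their step, where the filter removed it. Depth limits ABCB1, ABCC2 and ABCG2, which rest on few fragments.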
